A study of Mus musculus with 45 samples.

Results

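The 10 genes described here are the Gli-similar factors Glis1, Glis2 and Glis3, the Gli factors Gli1, Gli2 and Gli3, and the hedgehog pathway genes Ptch1, Smo, Sufu and Hhip. They are Gli-family and core hedgehog genes, taken by name and present in both the read count and the TPM data of male and female mice. TPM is transcript abundance scaled for length and depth. The study had already selected Glis2 for its change in these same mice, so its rise here is not an independent finding. They are 10 of 55401 annotated genes, and all 10 were among the 15991 protein-coding genes tested in males and the 15968 tested in females. The question put to them was whether the rise of Glis2 in kidney tubules that have lost Pkd1 was shared by its relatives or by hedgehog genes.

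Hedgehog ligands bind Patched (Ptch1), which then stops holding back the membrane protein Smoothened (Smo), and in vertebrates this exchange takes place at the primary cilium. Gli2 and Gli3 are the factors that receive the signal, Sufu restrains them in the cytoplasm, and Gli1, Ptch1 and Hhip are transcribed in response, so that their mRNA levels are a common readout of the pathway. The Glis factors share the zinc fingers of the Gli family. Mutations of GLIS2 cause nephronophthisis, a ciliary disease of the kidney, and GLIS3 mutations cause a syndrome with cystic kidneys.

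The data were translating ribosome affinity purification (TRAP) RNASeq of mouse kidneys, in which ribosomes carrying EGFP-L10a are pulled down with the mRNA that they are translating. All 45 mice were hemizygous for R26Rpl10a, Pax8rtTA and TetOCre, received doxycycline from P28 to P42 and were examined at P49, or 7 weeks. Cre, and with it the tagged ribosome, was therefore switched on in cells where Pax8rtTA was active under doxycycline, mainly kidney tubule cells. The TRAP library of a mouse mixes all tubule segments. Noncystic mice, which the labels call WT, carried 1 floxed Pkd1 allele together with Cre, so that they too could lose that allele. Pkd1KO mice carried 2 floxed Pkd1 alleles, and Pkd1KO+ciliaKO mice also carried 2 floxed alleles of Kif3a, a motor subunit needed to build cilia. There were 8 noncystic, 7 Pkd1KO and 9 Pkd1KO+ciliaKO males, and 7, 8 and 6 females. Each library came from a separate mouse and held between 80874556 and 132958186 counted read pairs. Levels are given as CPM, read counts scaled to the TMM-adjusted library size, for 1 gene across mice, and as TPM where genes are set side by side. In such bulk libraries, fewer cells of a type and less RNA per cell cannot be told apart.

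The part of each factor that contacts DNA is an array of 5 zinc fingers, in which a pair of cysteines and a pair of histidines hold a zinc ion. The fifth finger lies in a single coding exon in all 6 factors and is shown to let the family be compared base by base. The sequences come from GENCODE vM21 transcripts, on GRCm38, and run 5′ to 3′ on the coding strand. Capitals mark the codons of the zinc-holding cysteines and histidines.
Glis1, chr4:107619566-107619634, plus strand: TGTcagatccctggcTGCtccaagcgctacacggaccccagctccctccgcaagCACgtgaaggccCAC
Glis2, chr16:4613493-4613561, plus strand: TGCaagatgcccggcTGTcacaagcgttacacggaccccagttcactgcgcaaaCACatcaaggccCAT
Glis3, chr19:28354236-28354304, minus strand: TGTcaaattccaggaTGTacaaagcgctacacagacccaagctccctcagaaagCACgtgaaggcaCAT
Gli1, chr10:127333715-127333786, minus strand: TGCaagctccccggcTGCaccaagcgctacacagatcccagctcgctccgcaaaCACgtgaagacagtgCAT
Gli2, chr1:118842114-118842185, minus strand: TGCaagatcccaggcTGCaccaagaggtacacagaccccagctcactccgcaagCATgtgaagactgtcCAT
Gli3, chr13:15720067-15720138, plus strand: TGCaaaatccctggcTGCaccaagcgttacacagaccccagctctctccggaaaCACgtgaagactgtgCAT

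Both cysteines and the first histidine stood at codons 1, 6 and 19 of the finger in all 6 factors. The second histidine stood at codon 23 in the 3 Glis factors and at codon 24 in the 3 Gli factors. Over the 57 bases from the first cysteine to the first histidine, Glis2 differed from Gli1 and from Gli3 at 11 bases, from Glis1 and from Gli2 at 12, and from Glis3 at 18. From the first to the last finger, identity to Glis2 was between 60.4% for Glis3 and 64.9% for Gli2. The longest exact run of bases that any other member shared with a Glis2 transcript was 20, in Glis1, against reads of 150 bases.

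Glis2 lies on the plus strand of chromosome 16 (chr16:4594713-4624924), Glis1 on chromosome 4 (chr4:107434591-107635061, plus) and Glis3 on chromosome 19 (chr19:28258851-28680077, minus). Gli1 lies at chr10:127329882-127341974 (minus), Gli2 at chr1:118834132-119053619 (minus) and Gli3 at chr13:15463235-15730026 (plus). Ptch1 is at chr13:63508328-63573598 (minus), Smo at chr6:29735503-29761365 (plus), Sufu at chr19:46396896-46488804 (plus) and Hhip at chr8:79965851-80058006 (minus). Exons of Glis2 overlap those of Pam16, a mitochondrial import subunit on the opposite strand, over 455 bases or 10.4% of the exon bases of Glis2. The strand setting of the read counting is not given in the sources used here.

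The floxed genes were examined first, since they check the labels. Kif3a was between 4.90 and 7.45 CPM in Pkd1KO+ciliaKO males and between 21.6 and 29.2 CPM in Pkd1KO males. In females, 5 of 6 Pkd1KO+ciliaKO mice had between 6.56 and 8.47 CPM, but the library labelled Pkd1KO+ciliaKO female 6 had 20.7 CPM. The library labelled noncystic female 5 had 6.69 CPM, against 23.2 to 25.3 CPM in the other noncystic females. These 2 female libraries went against their labels. Without them edgeR called the same members in each female genotype comparison, and the values without them are given for Glis2, Smo and the wider genes called in females. Noncystic male 8 had 13.8 CPM, below the 20.4 to 25.5 CPM of the other noncystic males. Pkd1, counted over all its exons, had medians of 49.3, 36.6 and 42.3 CPM in noncystic, Pkd1KO and Pkd1KO+ciliaKO males and of 51.5, 40.1 and 54.0 CPM in females, and its ranges overlapped in every comparison. A deletion of part of the gene is not read directly from such counts. The 6 proximal tubule markers summed to between 4287 and 10700 CPM and the 4 thick ascending limb markers to between 1991 and 5179 CPM. The 7 fibroblast and pericyte markers summed to between 202.2 and 1126 CPM, which overlaps the sums for distal convoluted tubule, principal and intercalated cells. The 6 podocyte markers summed to between 41.6 and 185.5 CPM and the 5 macrophage markers to between 36.7 and 309.3 CPM.

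Per unit of transcript length, Glis2 was the most abundant of the 10 genes and the Gli factors were among the least. Over the male mice of all genotypes, the median TPM was 179.6 for Glis2, 80.6 for Glis3, 47.7 for Smo, 30.3 for Sufu, 17.6 for Ptch1 and 9.83 for Glis1. The pathway's transcription factors and its secreted ligand trap followed far below, at 2.14 for Gli2, 0.880 for Gli3, 0.361 for Gli1 and 0.306 for Hhip. Glis2 exceeded 94.75% of the genes tested in males, whereas Hhip exceeded 13.67%. Females gave the same order, from 200.7 TPM for Glis2 through 87.7 for Glis3 and 49.4 for Smo to 0.486 for Gli1 and 0.367 for Hhip. Glis2 and Glis3 overlapped in females, where the lowest Glis2 level was 109.4 TPM and the highest Glis3 level 116.0 TPM. Other neighbours in this order whose mice overlapped in both sexes were Sufu and Ptch1, Gli2 and Gli3, and Gli1 and Hhip. Smo and Sufu, Glis1 and Gli2, and Gli3 and Gli1 overlapped in males. Gli1 and Hhip were low but not absent. The smallest count in a mouse was 26 read pairs for Gli1 and 46 for Hhip, above the 3 counts taken here as the limit of detection, a limit that covers counting error only.

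**Figure D1:**
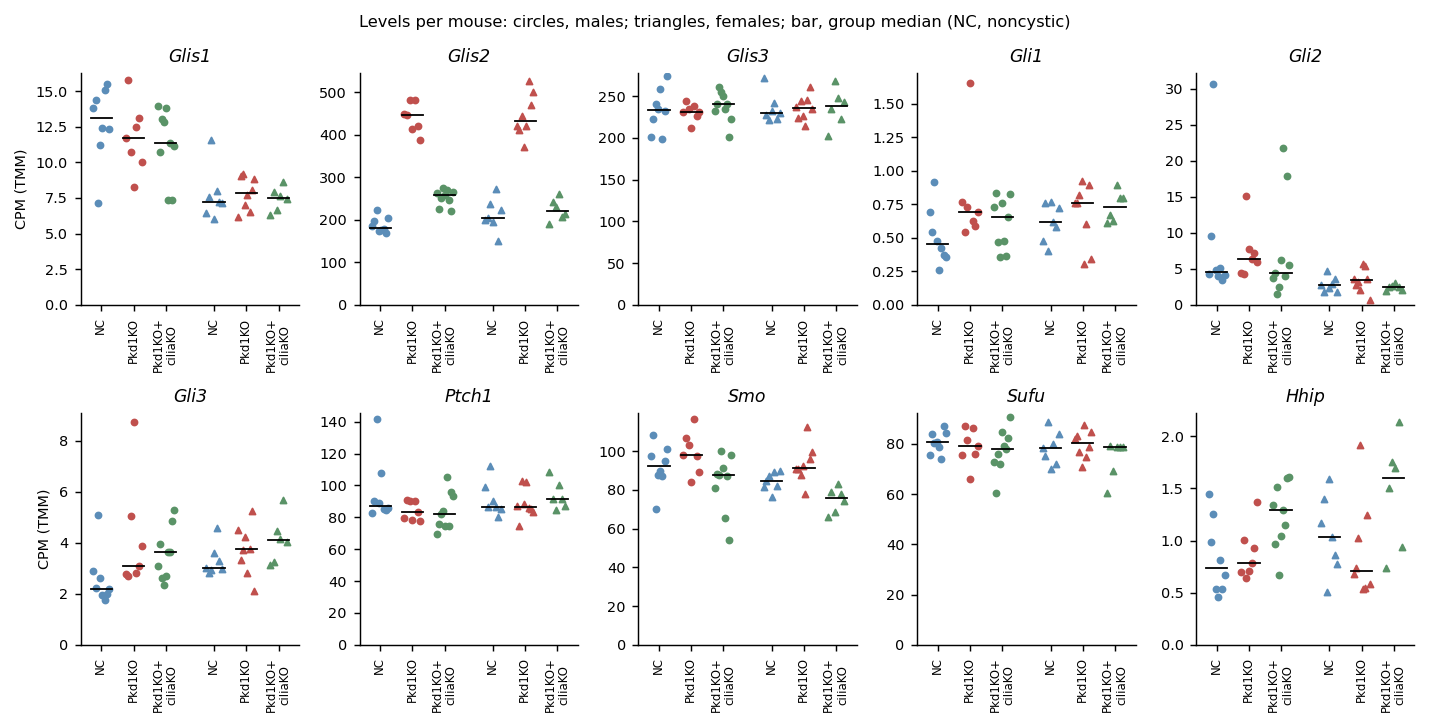
Level of each of the 10 genes in each of the 45 mice, in CPM on linear axes that start at 0, by genotype and sex (circles, males; triangles, females; bar, group median; NC, noncystic). Glis2 is the panel that shows the Pkd1KO mice apart from both other genotypes in both sexes, at 388 to 483 CPM in males and 372 to 526.2 CPM in females.

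Glis2, a Gli-like zinc finger factor that can repress or activate transcription, was the member that rose with loss of Pkd1. In males the lowest, median and highest noncystic mice had 169, 182 and 223 CPM, and the Pkd1KO males had 388, 446 and 483 CPM. Pkd1KO+ciliaKO males lay between, at 220, 259 and 274 CPM. Every Pkd1KO male was above every male of both other genotypes, and 8 of 9 Pkd1KO+ciliaKO males were above the highest noncystic male. Glis2 was 2.33-fold higher in Pkd1KO than in noncystic males (log2 fold change 1.22 ± 0.0724 SE, adjusted p = 1.12e-07, edgeR quasi-likelihood test with Benjamini-Hochberg adjustment over all genes, as throughout), the smallest p of the 15991 genes tested. It was higher in Pkd1KO than in Pkd1KO+ciliaKO males by 0.80 ± 0.0647 on the log2 scale (edgeR adjusted p = 7.45e-07). Pkd1KO+ciliaKO males were 0.43 ± 0.0659 above noncystic males (edgeR adjusted p = 0.000587).

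In females the lowest, median and highest Glis2 levels were 149, 204 and 272 CPM in noncystic mice, 372, 432 and 526.2 CPM in Pkd1KO mice and 191, 222 and 260 CPM in Pkd1KO+ciliaKO mice. Again every Pkd1KO mouse was above every mouse of the other genotypes, while noncystic and Pkd1KO+ciliaKO females overlapped. The log2 fold change was 1.08 ± 0.106 SE for Pkd1KO over noncystic (edgeR adjusted p = 1.84e-05) and 0.99 ± 0.0869 for Pkd1KO over Pkd1KO+ciliaKO (edgeR adjusted p = 1.31e-05). Pkd1KO+ciliaKO females differed from noncystic females by 0.08 ± 0.113 (edgeR adjusted p = 0.724). Without the 2 female libraries that went against their labels these values were 1.15, 0.98 and 0.16 (edgeR adjusted p = 5.42e-06, 3.18e-05 and 0.419). The highest noncystic female was then at 238 CPM, and noncystic and Pkd1KO+ciliaKO females still overlapped. The male and female responses did not differ past the threshold, by 0.15 on the log2 scale for Pkd1KO over noncystic and by -0.19 for Pkd1KO over Pkd1KO+ciliaKO (edgeR interaction of sex and genotype, adjusted p = 0.825 and 0.724).

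Pam16, whose exons overlap those of Glis2 on the other strand, was also higher in every Pkd1KO mouse than in every noncystic mouse of the same sex. Its mean went from 25.7 CPM in noncystic to 33.8 CPM in Pkd1KO males, a log2 fold change of 0.39 (edgeR adjusted p = 0.00127), and from 25.5 to 34.0 CPM in females, a log2 fold change of 0.42 (edgeR adjusted p = 0.00028). The mean of Glis2 went from 188.4 to 440.1 CPM in males over the same mice. Pam16 was also higher in Pkd1KO than in Pkd1KO+ciliaKO mice, by 0.22 in males (edgeR adjusted p = 0.0332) and by 0.47 in females (edgeR adjusted p = 0.000199), where every Pkd1KO female was above every Pkd1KO+ciliaKO female. The part of shared exon bases in either change was not tested.

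No other member was called higher in Pkd1KO than in noncystic mice of either sex. Between Pkd1KO and noncystic males 1 of 10 members was called at an adjusted p of at most 0.05, where 6.3% of all genes tested were, and 3 of 10 had an unadjusted p under 0.05, namely Glis2, Gli1 and Gli3. Between Pkd1KO and Pkd1KO+ciliaKO males 1 of 10 was called (3.77% of all genes), and between Pkd1KO+ciliaKO and noncystic males 1 of 10 (8.89% of all genes), Glis2 each time. In females 1 of 10 was called between Pkd1KO and noncystic mice (3.34% of all genes). Between Pkd1KO and Pkd1KO+ciliaKO females 2 of 10 were called, Glis2 and Smo (11.7% of all genes). Between Pkd1KO+ciliaKO and noncystic females edgeR called 0 of 10 (2.54% of all genes), with 1, Smo, at an unadjusted p under 0.05, and DESeq2 also called 0 (8.02% of all genes). In the comparisons of Pkd1KO with Pkd1KO+ciliaKO mice, 3 of 10 had an unadjusted edgeR p under 0.05 in each sex: Glis2, Smo and Hhip. Between Pkd1KO+ciliaKO and noncystic males these were Glis2, Gli3 and Hhip, and between Pkd1KO and noncystic females Glis2 and Smo. The share of all genes at an unadjusted p under 0.05 is not given here. The 3 comparisons of a sex share mice, so that they are not independent of each other. Groups that did not overlap in CPM were found for 1 of 10 members, Glis2, in each comparison of Pkd1KO with another genotype, against 2.11% and 1.11% of all genes in males and 1.06% and 2.99% in females for the comparison with noncystic and with Pkd1KO+ciliaKO mice.

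**Figure D2:**
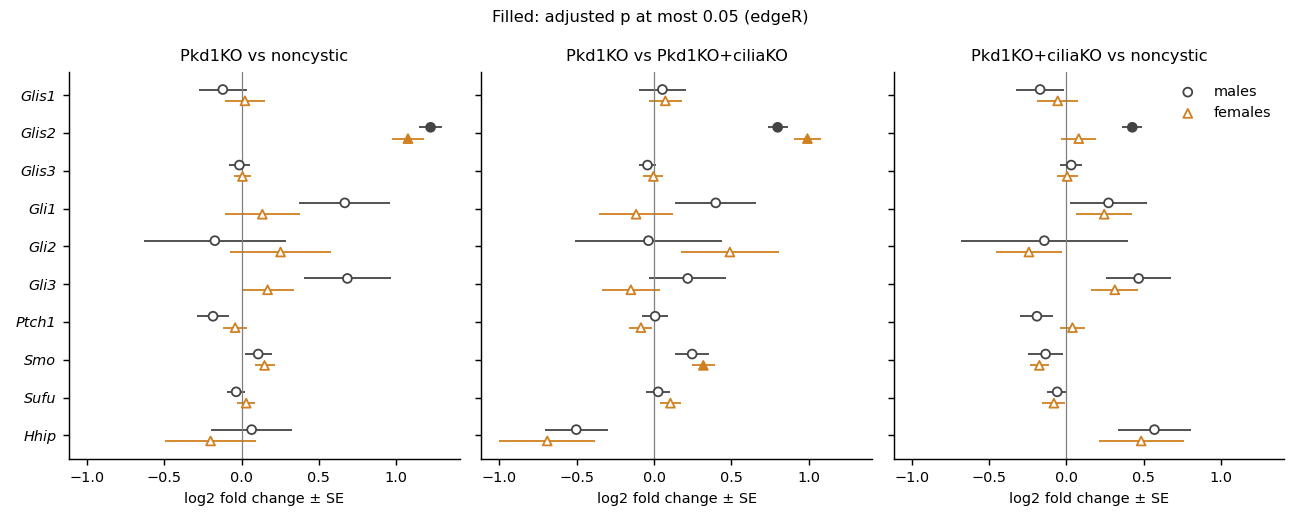
Log2 fold change of the 10 genes in the 3 genotype comparisons, with males as circles, females as triangles, bars of 1 SE and filled points for an adjusted p of at most 0.05. Glis2 lies at 1.22 and 1.08 for Pkd1KO over noncystic and at 0.80 and 0.99 for Pkd1KO over Pkd1KO+ciliaKO, apart from the other members, and the widest bars belong to the sparsely expressed Gli1, Gli2, Gli3 and Hhip.

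Neither of the other Glis factors was called between genotypes. Glis3, which is linked to cystic kidney disease, varied little: its group medians lay between 229.5 and 240.2 CPM in all 6 groups. Its log2 fold change was -0.01 ± 0.0694 in males and 0.01 ± 0.0563 in females for Pkd1KO over noncystic, and -0.04 ± 0.058 and -0.00 ± 0.0649 for Pkd1KO over Pkd1KO+ciliaKO (edgeR adjusted p between 0.72 and 0.98). Glis1, a factor best known from early development and reprogramming, had group medians of 13.1, 11.7 and 11.3 CPM in noncystic, Pkd1KO and Pkd1KO+ciliaKO males and of 7.20, 7.88 and 7.52 CPM in females. Its log2 fold changes in the 6 genotype comparisons lay between -0.17 and 0.07, none past the threshold. The genotypes overlapped for both genes.

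Among the Gli factors, the transcriptional target Gli1 and the largely repressive Gli3 had log2 fold changes of 0.67 ± 0.293 and 0.68 ± 0.283 for Pkd1KO over noncystic males, and neither passed the threshold (edgeR adjusted p = 0.191 and 0.166). The lowest, median and highest Gli1 levels were 0.258, 0.452 and 0.913 CPM in noncystic and 0.545, 0.691 and 1.66 CPM in Pkd1KO males. The corresponding Gli3 levels were 1.77, 2.20 and 5.08 CPM and 2.704, 3.09 and 8.73 CPM. The groups overlapped for both, and single mice set both ends. Pkd1KO male 4 had the highest level of each gene, and noncystic male 3 had the highest noncystic level of each.

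Leaving out noncystic male 3 brought Gli3 past the threshold, at 0.90 for Pkd1KO over noncystic males (edgeR adjusted p = 0.0438) and at 0.68 for Pkd1KO+ciliaKO over noncystic males (edgeR adjusted p = 0.0129), so that 2 members instead of 1 were called in each of those comparisons. With that mouse the latter value was 0.47 ± 0.208 (edgeR adjusted p = 0.174). In females the log2 fold changes of Gli1 and Gli3 were 0.13 ± 0.241 and 0.17 ± 0.168 for Pkd1KO over noncystic (edgeR adjusted p = 0.858 and 0.711). Pkd1KO male 4 also had the highest sums of macrophage markers (309.3 CPM against 93.4 CPM in the lowest Pkd1KO male), of podocyte markers (185.5 CPM) and of endothelial markers (364.3 CPM) among Pkd1KO males, and the lowest sum of proximal tubule markers (4287 CPM). In males 2 of 5 macrophage markers (Csf1r and Lyz2) were called higher in Pkd1KO than in noncystic mice, where 6.3% of all genes were called. Csf1r was much the most abundant, with a median of 97.5 CPM in Pkd1KO males against 4.77 CPM for Lyz2, the next highest. The 2 did not move together: in Pkd1KO+ciliaKO over noncystic males Csf1r was called lower and Lyz2 higher. The part of these marker levels in the Gli1 and Gli3 values was not tested.

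Gli2, the main activator of the pathway, varied widely between males of 1 genotype. The lowest, median and highest levels were 3.41, 4.63 and 30.7 CPM in noncystic males, 4.34, 6.40 and 15.2 CPM in Pkd1KO males and 1.55, 4.39 and 21.8 CPM in Pkd1KO+ciliaKO males. In females no mouse exceeded 5.68 CPM, and the group medians were 2.72, 3.40 and 2.46 CPM. The largest SE of any member belonged to its male comparisons, with log2 fold changes of -0.17 ± 0.461, -0.04 ± 0.478 and -0.14 ± 0.540 (edgeR adjusted p between 0.868 and 0.973). Leaving out single males turned the sign of all 3 values, over ranges of -0.45 to 0.54, -0.31 to 0.37 and -0.53 to 0.56, so that they give no direction.

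The males with the most Gli2 were noncystic male 3 (30.7 CPM), Pkd1KO+ciliaKO males 6 and 8 (21.8 and 18.0 CPM) and Pkd1KO male 3 (15.2 CPM), while no other male exceeded 9.64 CPM. Noncystic male 3 and Pkd1KO+ciliaKO males 6 and 8 also had Smo below the median of their group, at 70.2, 65.6 and 54.3 CPM. Their Glis1 was below it too, at 7.13, 7.36 and 7.39 CPM. Their Ptch1 levels were 141.8, 105.1 and 95.6 CPM, the highest of the noncystic males and the highest pair of the Pkd1KO+ciliaKO males. Pkd1KO male 3 did not share the whole pattern, since its Smo, at 103 CPM, was above the median of its group. Its Glis1, at 10.7 CPM, was below that median, and its Ptch1 was at 90.4 CPM. Glis2 in the same mice was at 223, 271 and 220 CPM in the first 3 and 483 CPM in the last. Noncystic male 3 had the highest sums of podocyte, endothelial, fibroblast and smooth muscle markers among noncystic males, at 111.4, 220.5, 864 and 402.4 CPM. Its proximal tubule sum, 6488 CPM, was the lowest of that group. Pkd1KO+ciliaKO male 6 had the lowest proximal tubule sum of its group, 5145 CPM, and male 8 was at the group median, 6615 CPM. The part of these sums in the levels of Gli2, Smo, Glis1 and Ptch1 was not tested.

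**Figure D3:**
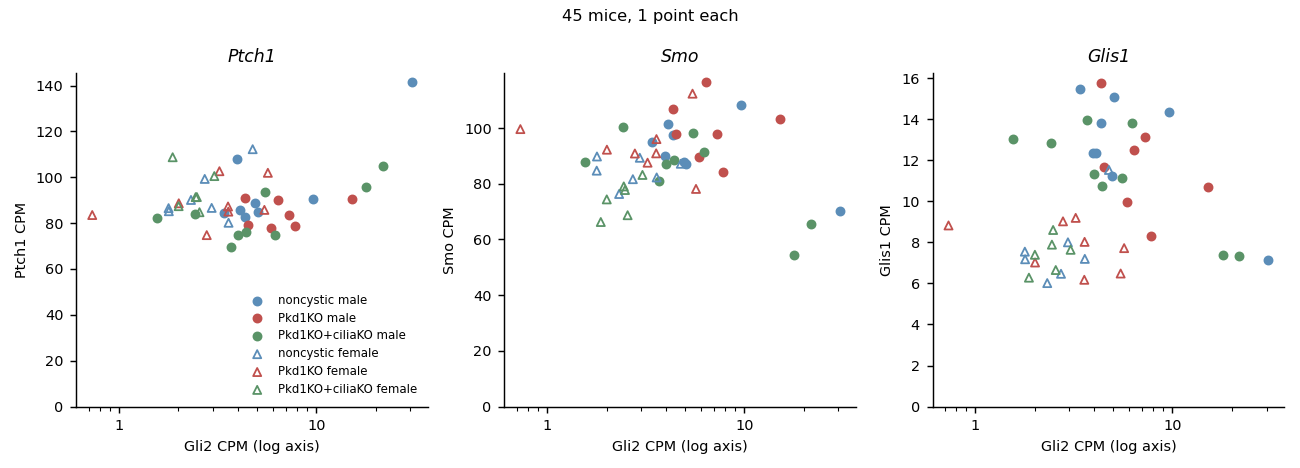
Level of Gli2 in each of the 45 mice (log axis) against the levels of Ptch1, Smo and Glis1 in the same mouse (linear axes), in CPM, coloured by genotype with males filled and females open. Against the medians of their own groups, the 3 males with 30.7, 21.8 and 18.0 CPM of Gli2 combine lower Smo and Glis1 with higher Ptch1. The Pkd1KO male with 15.2 CPM does not.

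Of the receptors, Smo was called in 1 comparison and Ptch1 in none. Ptch1, the receptor and a target of its own pathway, had group medians between 82.1 and 91.4 CPM in all 6 groups. Its log2 fold change was -0.18 ± 0.104 for Pkd1KO over noncystic males (edgeR adjusted p = 0.317) and -0.04 ± 0.0774 in females (edgeR adjusted p = 0.862). Smo, the signal transducer that enters the cilium, had lowest, median and highest levels of 78.1, 91.6 and 112 CPM in Pkd1KO females and of 66.3, 76.1 and 83.2 CPM in Pkd1KO+ciliaKO females. In noncystic females it was between 76.3 and 89.8 CPM, with a median of 84.7. Of the 8 Pkd1KO females, 7 were above the highest Pkd1KO+ciliaKO female, and the groups overlapped by the remaining mouse. The log2 fold change of Pkd1KO over Pkd1KO+ciliaKO females was 0.32 ± 0.075 (edgeR adjusted p = 0.0132), and 0.32 without the 2 libraries that went against their labels (edgeR adjusted p = 0.0245). On the deposited TPM values, tested with limma on log2(TPM + 1), this Smo difference was 0.21 and did not pass the threshold (adjusted p = 0.0641).

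In males the Smo medians were 92.5, 98.0 and 87.9 CPM in noncystic, Pkd1KO and Pkd1KO+ciliaKO mice, and the log2 fold change of Pkd1KO over Pkd1KO+ciliaKO was 0.25 ± 0.109 (edgeR adjusted p = 0.223). The difference between the sexes in this comparison was -0.07 ± 0.132 (edgeR interaction, adjusted p = 0.918). For Pkd1KO over noncystic mice Smo had log2 fold changes of 0.11 ± 0.0862 in males and 0.15 ± 0.0646 in females, neither past the threshold (edgeR adjusted p = 0.502 and 0.253).

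Neither inhibitor was called. Sufu, which holds Gli proteins in the cytoplasm, had group medians between 77.9 and 80.6 CPM, and its log2 fold changes lay between -0.08 and 0.11 in the 6 comparisons. Hhip, which captures hedgehog ligands and is a target of the pathway, had lower medians in Pkd1KO than in Pkd1KO+ciliaKO mice of both sexes. Its medians were 0.738, 0.781 and 1.29 CPM in noncystic, Pkd1KO and Pkd1KO+ciliaKO males and 1.03, 0.708 and 1.60 CPM in females. The log2 fold change of Pkd1KO over Pkd1KO+ciliaKO was -0.50 ± 0.202 in males and -0.69 ± 0.311 in females, and did not pass the threshold in either sex (edgeR adjusted p = 0.173 and 0.16). Leaving out Pkd1KO female 4, whose 1.91 CPM was the highest Pkd1KO value, gave -0.94 in females (edgeR adjusted p = 0.0342). That mouse also had the highest sum of fibroblast and pericyte markers of all Pkd1KO females, 1126 CPM, and its part in the Hhip value was not tested.

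Whether Glis2 rose more than each relative was tested directly, on the ratio of Glis2 to the other gene within each mouse, which does not depend on library scaling. The test was an exact two-sided permutation test over mice of the difference in mean log2 ratio, adjusted over the 9 ratios of a comparison. The ratio of Glis2 to Glis3 rose by 1.23 ± 0.0734 on the log2 scale between noncystic and Pkd1KO males, with every Pkd1KO male above every noncystic male. The exact permutation p was 0.000155, the smallest that 7 against 8 mice allow. The corresponding rise in females was 1.08 ± 0.115, with the same smallest exact p of 0.000155, also in 8 of 8 Pkd1KO mice above all noncystic mice. Against Pkd1KO+ciliaKO mice the ratio to Glis3 was higher in Pkd1KO mice by 0.84 ± 0.0536 in males and 0.99 ± 0.067 in females.

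Between Pkd1KO and noncystic males 7 of 9 ratios passed the test, and between the same genotypes in females 9 of 9 passed. Between Pkd1KO and Pkd1KO+ciliaKO mice 7 of 9 passed in males and 8 of 9 in females. The ratios that did not pass were those to Gli1 (0.56 ± 0.282, exact permutation p = 0.0659) and to Gli3 (0.59 ± 0.289, exact permutation p = 0.0544) for Pkd1KO over noncystic males. For Pkd1KO over Pkd1KO+ciliaKO mice they were those to Gli1 and Gli2 in males (0.44 and 0.45, exact permutation p = 0.144 and 0.403) and to Gli2 in females (0.69, exact permutation p = 0.0629). The Gli factors and Hhip had the lowest median levels of the members, and their ratios had the widest SEs. The ratio to Hhip nevertheless passed in each comparison. All 9 ratios of a mouse share its Glis2 level and are therefore not independent. The rise of Glis2 was known beforehand and lifts its ratio to any gene that stays level, so these counts largely restate it. The share of all genes whose ratio would pass was not computed. The counts in females were unchanged, at 9 and 8, without the 2 libraries that went against their labels.

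**Figure D4:**
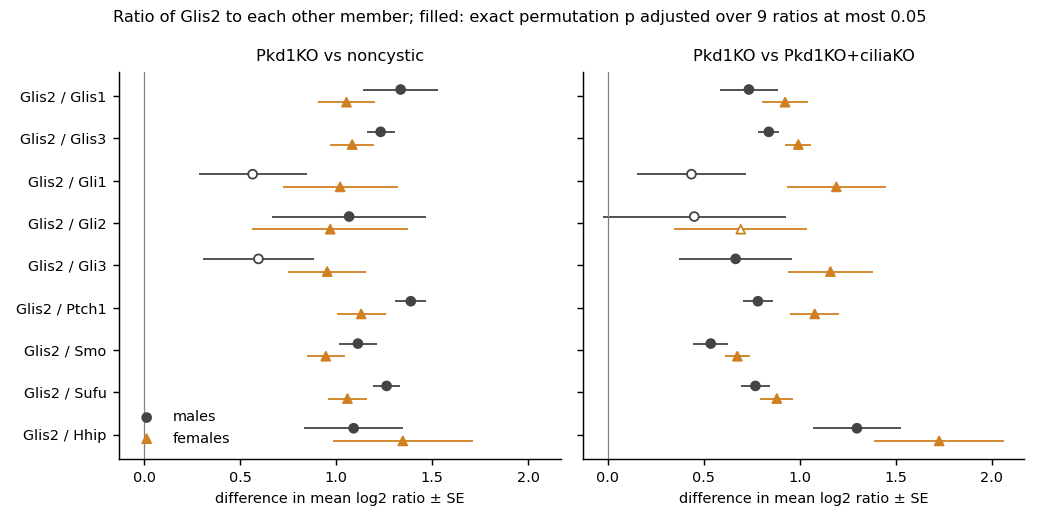
Difference between genotypes in the log2 ratio of Glis2 to each other member, for males (circles) and females (triangles), with bars of 1 SE and filled points for an adjusted exact permutation p of at most 0.05. The ratios to Glis3, Ptch1, Smo and Sufu lie above 0 with narrow bars in all 4 comparisons, and the lowest point is the ratio to Gli1 in males, at 0.44 against Pkd1KO+ciliaKO mice.

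The genes most like Glis2 were not members. Likeness was measured as the root mean square difference from Glis2 over the 6 group means of log2 CPM, each gene centred on the mean of the 3 genotypes within a sex, among 12816 genes with a mean of at least 1 CPM. The 5 closest were Cables2 (0.0517), Gbp2 (0.0735), Hes2 (0.0737), Tgtp1 (0.0910) and Stc2 (0.102). Cables2 encodes a cyclin-dependent kinase linker, Hes2 a Hairy-related repressor and Stc2 the secreted glycoprotein stanniocalcin-2. Gbp2 and Tgtp1 belong to families of interferon-induced GTPases with near-identical copies, between which reads may be shared, so that their values are uncertain. Of the members, Gli3 came nearest at rank 1180 with a difference of 0.416, followed by Gli2 at 1326 and Smo at 1394, while Glis3 ranked 5646 and Hhip 12283. Gli1 was below the level limit and not ranked.

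Cables2 passed the threshold in 4 of the 5 comparisons in which Glis2 did, by 1.14 and 0.86 in Pkd1KO males over noncystic and Pkd1KO+ciliaKO males and by 1.05 and 0.89 in females (edgeR adjusted p between 2.85e-07 and 1.84e-05). It had 0.28 for Pkd1KO+ciliaKO over noncystic males (edgeR adjusted p = 0.0517), where Glis2 was called. Stc2 passed the threshold in the same 4 comparisons as Cables2 (1.71, 1.17, 1.20 and 0.90). Hes2 and Gbp2 passed it in 3 of 4 and Tgtp1 in 1 of 4. These tests describe genes that were picked for this pattern. Cables2 had also been named by the study for this pattern in these mice, and by qRT-PCR it rose in cultured kidney cells that lost Pkd1.

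The sexes differed in 2 members among the noncystic mice, where 27.5% of all genes tested differed. Glis1 was higher in males by 0.74 ± 0.159 on the log2 scale (edgeR adjusted p = 0.00214), with medians of 13.1 CPM in males and 7.20 CPM in females, and by 0.75 without noncystic female 5 (edgeR adjusted p = 0.00438). Gli2 was higher in males by 1.55 ± 0.451 (edgeR adjusted p = 0.0162), with medians of 4.63 and 2.72 CPM. Without noncystic male 3 the Gli2 difference was 0.84 (edgeR adjusted p = 0.0146). In that fit 4 members were called instead of 2, since Gli3 was lower in males by a log2 fold change of -0.56 (edgeR adjusted p = 0.00441) and Smo was higher by 0.18 (edgeR adjusted p = 0.0249). Neither of the sex by genotype comparisons called a member: edgeR and DESeq2 both called 0 of 10, with 0 at an unadjusted p under 0.05, where edgeR called 0.0126% of all genes for Pkd1KO over noncystic and 0.221% for Pkd1KO over Pkd1KO+ciliaKO mice, and DESeq2 0.183% and 0.455%.

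The rest of the pathway was taken as lists of ligands, receptors and co-receptors, cilium-based regulators, Gli kinases and turnover factors, target genes, other Gli-like zinc finger genes and Glis binding partners, together 68 genes of which 62 were tested. The others did not reach the count minimum. Between Pkd1KO and noncystic males 3 of 62 were called higher and 0 lower, where 6.3% of all genes were called, and in females 2 were called higher and 2 lower (3.34% of all genes). Between Pkd1KO and Pkd1KO+ciliaKO mice 0 were higher and 1 lower in males (3.77%), and 3 higher and 1 lower in females (11.7%). Between Pkd1KO+ciliaKO and noncystic mice 5 were higher and 0 lower in males (8.89%), and 1 higher and 1 lower in females (2.54%). Zic2, which was read in some mice of a genotype and not in others, was 1 of the called genes in all of these but the comparison of Pkd1KO with noncystic males and that of Pkd1KO+ciliaKO with noncystic females. Its call between Pkd1KO and noncystic females rests on noncystic female 5 and was lost without the 2 libraries that went against their labels. Without those 2 libraries the counts in females were 3, 3 and 5. The share of all genes called in those fits is not given here. Between noncystic males and females 7 of 62 were higher in males and 10 lower (27.5% of all genes). The median log2 fold change over the 62 genes was 0.06 for Pkd1KO over noncystic males and 0.002 in females, against medians of -0.01 and -0.0008 over all genes. For Pkd1KO over Pkd1KO+ciliaKO it was 0.03 in males and -0.09 in females, against 0.01 and -0.01.

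The genes below are those called between genotypes. Of the 13 regulators that act at the cilium, Rab23 and Gpr161 were called higher in Pkd1KO than in noncystic mice of both sexes. Rab23 is a small GTPase and Gpr161 a ciliary receptor, and both hold the pathway back. On the deposited TPM values, tested with limma, neither male call passed, with adjusted p of 0.0583 for Rab23 and 0.0922 for Gpr161 on log2(TPM + 1) and of 0.0558 and 0.0765 on log2(TPM + 0.1). Rab23 had medians of 25.1, 33.2 and 26.7 CPM in noncystic, Pkd1KO and Pkd1KO+ciliaKO males and of 18.9, 28.0 and 20.3 CPM in females. Pkd1KO exceeded noncystic mice by 0.38 ± 0.0877 in males and 0.50 ± 0.0765 in females (edgeR adjusted p = 0.0153 and 0.00122). It exceeded Pkd1KO+ciliaKO mice by 0.43 ± 0.0709 in females (edgeR adjusted p = 0.00179), while the male value of 0.35 ± 0.103 did not pass (edgeR adjusted p = 0.0649). DESeq2, which the study used, did call Rab23 in that male comparison. Without the 2 libraries that went against their labels the female values were 0.49 and 0.42 (edgeR adjusted p = 0.00268 and 0.00404). Rab23 thus had the order of genotypes seen for Glis2, with a smaller difference. The study had already listed Rab23, from these same mice, among genes higher in Pkd1KO than in both other genotypes in both sexes.

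Gpr161 had medians of 2.22, 4.45 and 3.44 CPM in noncystic, Pkd1KO and Pkd1KO+ciliaKO males and of 3.33, 5.11 and 4.56 CPM in females. Pkd1KO exceeded noncystic mice by 0.89 ± 0.211 in males and 0.54 ± 0.14 in females (edgeR adjusted p = 0.0184 and 0.0424). The male call held in all 15 fits that each left out 1 mouse, and the female call in 2 of 15. The value for males was 0.50 under limma on log2(TPM + 1), and the female call was lost when every annotated gene was tested (edgeR adjusted p = 0.0521) but held without the 2 libraries that went against their labels, at 0.66 (edgeR adjusted p = 0.00432). Against Pkd1KO+ciliaKO mice it differed by 0.39 and 0.16, neither past the threshold (edgeR adjusted p = 0.194 and 0.405). Without the 2 libraries that went against their labels, Gpr161 was also called higher in Pkd1KO+ciliaKO than in noncystic females, by 0.53 (edgeR adjusted p = 0.013). Tulp3, an adaptor that carries receptors into cilia, fell by 0.28 ± 0.0673 in Pkd1KO against noncystic females (edgeR adjusted p = 0.0262), and had -0.30 ± 0.0993 in males (edgeR adjusted p = 0.0837). The female call held in 9 of 15 fits that each left out 1 mouse, and without the 2 libraries (-0.30, edgeR adjusted p = 0.0222). Efcab7, a tether of the Evc complex at the ciliary base, was higher in Pkd1KO+ciliaKO than in noncystic males by 0.89 ± 0.151 (edgeR adjusted p = 0.00121), with every mouse of the one group above every mouse of the other (1.06% of all genes).

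Of the 6 receptor and co-receptor genes, Gas1, which helps Ptch1 bind ligand, was called in both sexes, higher in Pkd1KO+ciliaKO than in noncystic mice by 0.33 ± 0.0997 in males and 0.52 ± 0.127 in females (edgeR adjusted p = 0.0442 and 0.0448). All 6 Pkd1KO+ciliaKO females were above all noncystic females, as was so, in either direction, for 1.73% of all genes. With 1 mouse left out at a time, the call held in 6 of 17 fits in males and 3 of 13 in females, and the female value without the 2 libraries was 0.60 (edgeR adjusted p = 0.0252). Of the 9 ligand genes, Shh was called higher in Pkd1KO than in Pkd1KO+ciliaKO females, by 0.60 ± 0.178 (edgeR adjusted p = 0.0401), and this was lost without the 2 libraries that went against their labels (0.58, edgeR adjusted p = 0.0725). The call held in 4 of 14 fits that each left out 1 mouse. Shh medians were at most 1.48 CPM in any group. In males it had -0.15 ± 0.149 in the same comparison, and the difference between the sexes was -0.75 ± 0.232 (edgeR interaction, adjusted p = 0.25).

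Of the 16 other target genes tested, Ccnd1 and Cdk6, both drivers of the G1 phase, were the ones called between genotypes, in comparisons of males. Ccnd1 was higher than in noncystic males by 0.66 ± 0.107 in Pkd1KO and by 0.57 ± 0.0947 in Pkd1KO+ciliaKO males (edgeR adjusted p = 0.00151 and 0.00113), and it had 0.43 ± 0.157 for Pkd1KO over noncystic females (edgeR adjusted p = 0.153). Its sex difference for Pkd1KO over noncystic mice was 0.22 ± 0.193 (edgeR interaction, adjusted p = 0.843). Cdk6 was higher in Pkd1KO+ciliaKO than in noncystic males by 0.36 ± 0.104 (edgeR adjusted p = 0.0389), a call that held in 7 of 17 fits that each left out 1 mouse. Both genes answer to many signals besides hedgehog. Of the 12 Gli kinases and turnover factors 1 was called between genotypes, Fkbp8, lower in Pkd1KO+ciliaKO than in noncystic females by a log2 fold change of -0.25 ± 0.0581 (edgeR adjusted p = 0.04), which held in 5 of 13 fits that each left out 1 mouse and without the 2 libraries (-0.26, edgeR adjusted p = 0.0383). Of the 6 Glis binding partners 1 was called between genotypes, the co-repressor Ctbp1, higher in Pkd1KO than in Pkd1KO+ciliaKO females by 0.23 ± 0.0626 (edgeR adjusted p = 0.0277, and 0.0546 without the 2 libraries), which held in 7 of 14 such fits.

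The one other Gli-like zinc finger gene tested, Zic2, was read in some mice and absent from others of the same genotype. In noncystic and Pkd1KO males its count was 0 or 1 in every mouse. In Pkd1KO+ciliaKO males 2, 3, 4, 5, 7 and 8 it had between 297 and 433 counts, or 2.74 to 4.12 CPM, and in males 1, 6 and 9 it had 0. Among females it had 244, 311, 758 and 93 counts in Pkd1KO+ciliaKO mice 1, 3, 4 and 6 and at most 2 in mice 2 and 5. Pkd1KO females had 0 or 1, and noncystic females 0 to 2, except the library labelled noncystic female 5, with 590 counts. That is the noncystic library whose Kif3a level went against its label. No fold change is given, since most groups were at or under 3 counts.

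**Figure D5:**
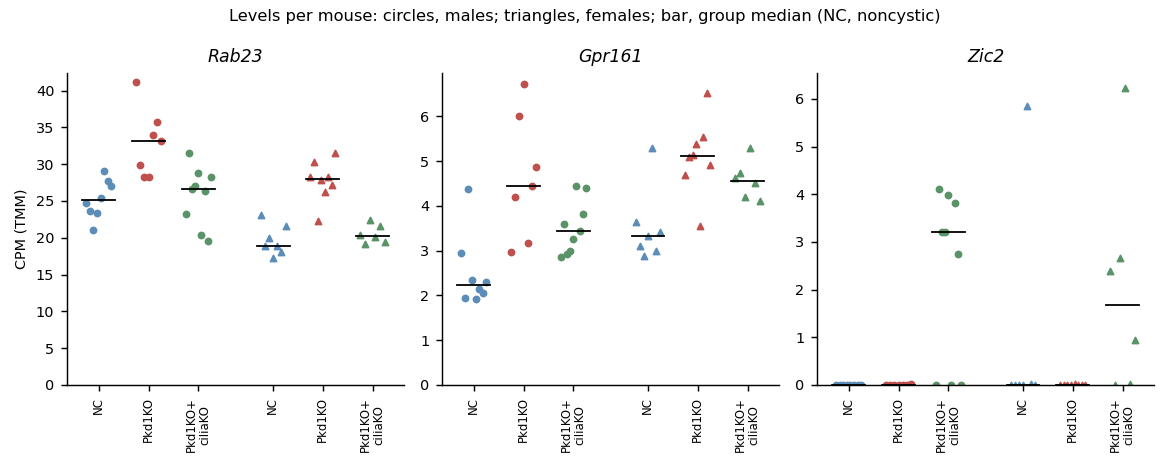
Levels of Rab23, Gpr161 and Zic2 in each of the 45 mice, in CPM on linear axes that start at 0, by genotype and sex (circles, males; triangles, females; bar, group median; NC, noncystic). Rab23 is highest at the median in Pkd1KO mice, at 33.2 CPM in males and 28.0 CPM in females, and Zic2 splits the Pkd1KO+ciliaKO mice into some near 0 and others of up to 6.23 CPM.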

How the data were processed

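TRAP RNA of 45 mouse kidneys was sequenced as paired 150 bp reads in a single batch. The submitters' processing notes name fastp 0.20.0, STAR 2.7.9, featureCounts 2.0.0 and the GRCm38.p6 build; strandedness and the handling of multimapped reads are not given in the sources used here. The authors deposited raw counts per gene, and TPM per protein-coding gene by sex; 0 columns of samples were left unused. Protein-coding genes reaching 6 counts in 20% or more of the mice were tested on the counts (R 4.3.3, edgeR 4.0.16, TMM scaling, quasi-likelihood test, males and females apart, Benjamini-Hochberg adjustment, threshold 0.05), and sex differences on the 15828 genes of both TPM tables. Alternatives used DESeq2 1.42.0, limma 3.58.1 on log2(TPM + 1) and log2(TPM + 0.1), other filters and scalings, a replicate block and leaving out mice. Fits were tested on simulated data. Ratios of Glis2 to a member added 0.5 counts and used an exact permutation test (Python 3.11.15, scipy 1.17.1, numpy 2.4.6, pandas 2.3.3). Depth was 80874556 to 132958186 counted read pairs per mouse, and p-values measure the spread between separate mice. No 2 libraries of a group agreed within sampling noise.

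The members and gene lists were chosen with earlier results of these data known. All 10 members were named in every comparison, and of each wider list at most 3 genes called in at least 1 genotype comparison, or the whole called set where it held 5 or fewer; Kif3a and Pkd1 checked the labels, and the 5 genes nearest Glis2 were taken by their group means of log2(CPM + 0.1). The fits without both female libraries that went against their labels, and those leaving out each noncystic mouse in the comparison of sexes, were added after seeing the data. Exons and sequences came from GENCODE vM21; zinc fingers were found as Cys-Cys-His-His patterns in translated coding sequence.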

Additional observations from a re-analysis of the deposited data

Results flagged for a closer look

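Of 60 sets of 1 member in 1 group, 8 held a mouse set apart from the rest by Dixon's test at the 95% level, where chance gives about 1 in 20. Noncystic male 3 accounted for 3 of them, with Gli2 at 30.7 CPM (nearest other mouse 9.64), Gli3 at 5.08 CPM (2.89) and Ptch1 at 141.8 CPM (107.9). Pkd1KO male 4 accounted for 2, with Gli1 at 1.66 CPM (0.768) and Gli3 at 8.73 CPM (5.03). Gli2 stood at 15.2 CPM in Pkd1KO male 3 (7.78). In noncystic females, Glis1 was at 11.5 CPM in mouse 3 (8.01) and Glis3 at 271.3 CPM in mouse 1 (241.9). Glis2 had no such mouse in any group.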

How the results depend on the processing

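Glis2 kept its direction and its side of the threshold in all 6 genotype comparisons under each alternative run for them. With 1 mouse left out at a time its log2 fold changes were 1.20 to 1.26, 0.78 to 0.83 and 0.40 to 0.46 in males, and 1.01 to 1.15 and 0.95 to 1.04 in the female comparisons where it was called. Low counts of Gli1 and Hhip, and 4 males with high Gli2, limit what these data show of those genes. Mice of the same number in different genotypes did not deviate together throughout (correlations from -0.329 to 0.363), so they share only a number, and the replicate block is one more alternative.

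Members called between Pkd1KO and Pkd1KO+ciliaKO females numbered 1 instead of 2 under the replicate block, where Smo had 0.29, and under limma with either pseudocount. Leaving out 1 mouse gave 1 to 2 members in both male comparisons with noncystic mice and 2 to 4 between the noncystic sexes, and in each case noncystic male 3 gave the higher count. For the wider lists, DESeq2 called 5 genes instead of 3 for Pkd1KO over noncystic males, 5 instead of 1 for Pkd1KO over Pkd1KO+ciliaKO males, 8 instead of 4 for the same in females and 4 instead of 2 for Pkd1KO+ciliaKO over noncystic females. A fit of all 3 genotypes called 3 instead of 1 for Pkd1KO over Pkd1KO+ciliaKO males. Under the replicate block 3 instead of 5 were called for Pkd1KO+ciliaKO over noncystic males, and 2 instead of 4, 1 instead of 4 and 0 instead of 2 in the female comparisons. Testing every annotated gene gave 0 for Pkd1KO+ciliaKO over noncystic females, and leaving out both libraries that went against their labels gave 5. For Pkd1KO+ciliaKO over noncystic females DESeq2 called 8.02% of all genes, against 2.54% under edgeR. For the other counts under these alternatives the share of all genes is not given here, so they cannot be set against it. Under the alternatives that kept all mice or left out both libraries, the calls of single wider genes held in 7 of 9 for Rab23 and for Gpr161 over noncystic males, 8 of 10 for Gpr161 over noncystic females (lost under the block, adjusted p = 0.157) and 9 of 10 for Rab23 over Pkd1KO+ciliaKO females. They held in 6 of 9 for Cdk6, 5 of 9 and 8 of 10 for Gas1 in males and females, 7 of 10 for Tulp3, and 6 of 10 each for Ctbp1, Fkbp8 and Shh. The cause was not tested.

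Values that turned sign were uncalled throughout. For Pkd1KO over noncystic males, Gli2 turned to 0.52 under DESeq2, 0.092 under the block and 0.057 and 0.12 under limma with pseudocounts of 1 and 0.1, and Glis3 to 0.037 under the block. For Pkd1KO over Pkd1KO+ciliaKO males, the block gave 0.57 for Gli2 and -0.011 for Glis1, and limma gave 0.083 and 0.20 for Gli2, -0.055 and -0.060 for Glis1, -0.10 and -0.11 for Ptch1 and -0.092 and -0.094 for Sufu. For Pkd1KO+ciliaKO over noncystic males limma gave 0.024 and 0.025 for Sufu. In females, Glis3 for Pkd1KO over noncystic turned to -0.0061 in one fit of the 3 genotypes, -0.0066 with at least 10 counts and -0.0020 under the block, and Glis1 to -3.3e-05 under the block. For Pkd1KO over Pkd1KO+ciliaKO females Glis3 turned to 0.0095 over every annotated gene and 0.0043 without both libraries, and Glis1 to -0.026 and -0.029 under limma. For Pkd1KO+ciliaKO over noncystic females Glis3 turned to -0.0051 over every annotated gene, and limma gave 0.078 and 0.089 for Glis1 and 0.042 and 0.043 for Sufu. Between the noncystic sexes Glis3 was -0.0017 under DESeq2 and its size factors.

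With 1 mouse left out, these ranges crossed 0. For Pkd1KO over noncystic males they were -0.45 to 0.54 (Gli2), -0.068 to 0.22 (Hhip), -0.044 to 0.032 (Glis3) and -0.060 to 0.0071 (Sufu). For Pkd1KO over Pkd1KO+ciliaKO males they were -0.31 to 0.37 (Gli2), -0.032 to 0.12 (Glis1), -0.014 to 0.061 (Ptch1), -0.079 to 0.32 (Gli3) and -0.012 to 0.068 (Sufu). For Pkd1KO+ciliaKO over noncystic males they were -0.53 to 0.56 (Gli2) and -0.0046 to 0.069 (Glis3). For Pkd1KO over noncystic females they were -0.042 to 0.14 (Glis1), -0.014 to 0.043 (Glis3), -0.071 to 0.013 (Ptch1) and -0.0073 to 0.060 (Sufu). For Pkd1KO over Pkd1KO+ciliaKO females the range was -0.046 to 0.029 (Glis3). For Pkd1KO+ciliaKO over noncystic females they were -0.025 to 0.045 (Glis3), -0.11 to 0.073 (Glis1) and -0.0070 to 0.10 (Ptch1). Between the noncystic sexes they were -0.024 to 0.14 (Ptch1) and -0.034 to 0.040 (Glis3).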
